A study of Drosophila melanogaster with 8 samples.

Results

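Among whole wing discs of Drosophila melanogaster larvae, 47 of 17559 annotated genes had transcripts that were abundant in 2 control libraries and 1 Antp CRISPR library and near 0 in the other 5. The largest named group among them was digestive serine proteases. Members were chosen by their measured levels in all 8 libraries. A gene's mean in wt 2 and wt 3 had to be at least 2 CPM (reads scaled to a library of 1000000 gene reads), and at least 8 times the level plus 0.1 CPM in each of wt 1, wt 4, CRISPR 1, CRISPR 2 and CRISPR 4. The level in CRISPR 3 had to be at least 25% of that mean, and 6 fat body genes were left out by name. Since every library entered this rule, the levels of the members are given as a description, with no test.

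The larvae were raised at 29 °C and discs were taken at the wandering stage, about 5 days after egg lay. The 4 wt libraries came from the cross of the 1151 driver line to w1118, and the 4 CRISPR libraries from 1151>AntpCRISPR, in which the same driver directs CRISPR against the Hox gene Antp. The 1151 line is known for driving expression in adult muscle precursors, the cells on the disc that later form flight muscle. The labels give no CRISPR transgene in the wt cross, and genotype and strain background cannot be told apart. They name no animals, pools or batches behind the libraries, and they mark wt 2, wt 3, CRISPR 1 and CRISPR 2 as used by the submitters, so CRISPR 3 was not used.

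The shallowest library, CRISPR 1, had 35076546 gene reads and the deepest, wt 2, had 47980221, so 3 reads equal 0.0855 and 0.0625 CPM there. Antp, the targeted gene, averaged 166 ± 19.8 CPM over the CRISPR libraries and 147 ± 20.5 CPM over the wt libraries (SD, n = 4 each). The amount of Antp RNA is no check of the labels, as a cut gene may still be transcribed. Genes that mark the disc were present in every library. The wing disc epithelium list summed to between 2042 CPM (wt 1) and 2536 CPM (wt 3), and the list for adult muscle precursors to between 638 CPM (CRISPR 1) and 813 CPM (CRISPR 3).

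The larval midgut lies in the body cavity behind the discs and secretes enzymes that digest food. Its absorptive cells, the enterocytes, make serine proteases of the Jonah and trypsin families, which cut proteins after different amino acids, and lysozymes, which break bacterial cell walls. These genes sit in tandem arrays of close copies. Reads from whole discs do not say which cells made a transcript, and in bulk samples fewer cells of a type and less RNA per cell cannot be told apart.

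The 47 members together made up 0.4% of gene reads in wt 2, 0.404% in wt 3 and 0.235% in CRISPR 3. Their summed level was 3996 CPM in wt 2, 4040 in wt 3 and 2345 in CRISPR 3. Among the other libraries, CRISPR 2 had a sum of 18.0 CPM, CRISPR 4 had 5.95, wt 4 had 5.63, CRISPR 1 had 5.39 and wt 1 had 3.27 CPM. The high libraries thus included 2 of 4 wt and 1 of 4 CRISPR libraries, and both genotypes had libraries near 0. All 47 were annotated as protein coding.

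**Figure D1:**
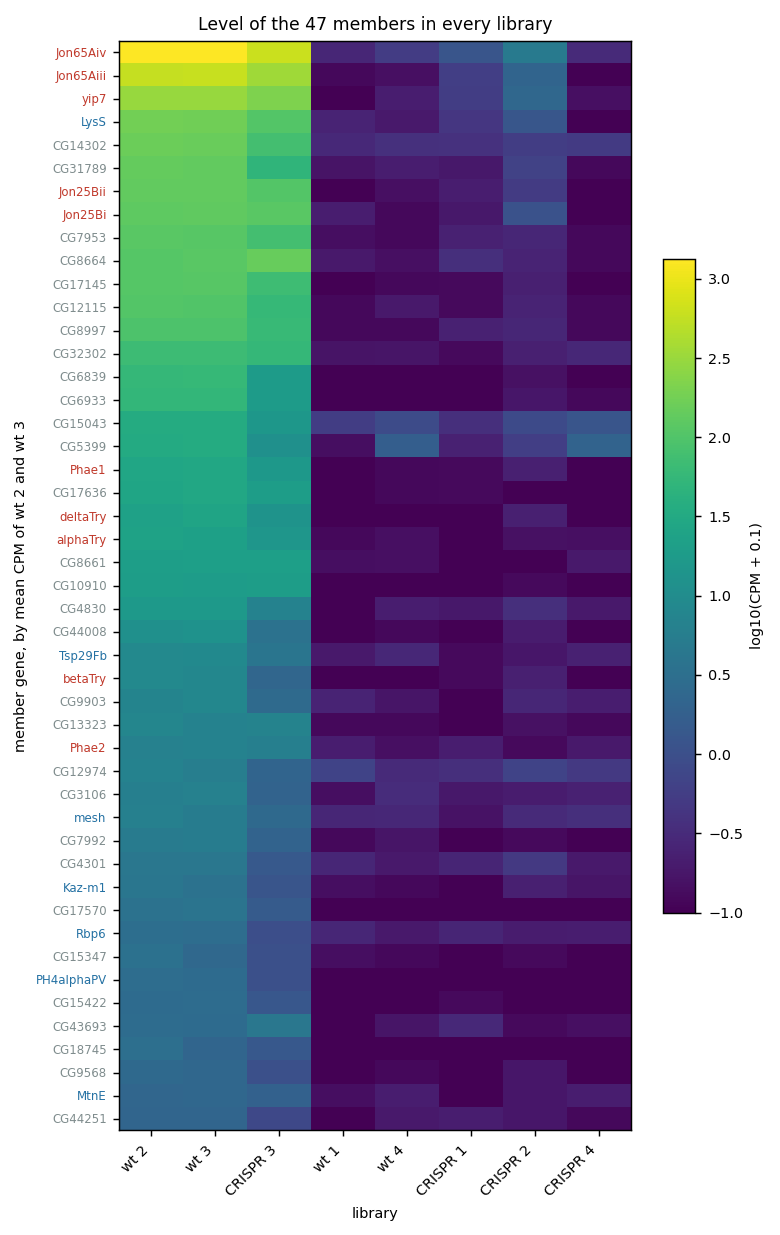
Level of each of the 47 members (rows, ordered by the mean of wt 2 and wt 3) in each of the 8 libraries (columns), coloured by log10(CPM + 0.1). Gene names in red are serine proteases, in grey genes known by a CG number only, in blue other named genes. The first 3 columns are bright and the other 5 dark, which the rule for members fixed, and Jon65Aiv in the top row is the highest member at 1315 CPM in wt 2.

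Jon65Aiv (FBgn0250815, 3L 6039155 to 6040135 in dm6), a Jonah serine protease gene, had the highest level. It stood at 1315 CPM in wt 2, 1341 in wt 3 and 634 in CRISPR 3, against 4.73 CPM in CRISPR 2, 1.11 in CRISPR 1, 0.439 in wt 4, 0.212 in CRISPR 4 and 0.179 in wt 1. It alone supplied 32.9% of the members' reads in wt 2, 33.2% in wt 3 and 27.0% in CRISPR 3. Among all genes it ranked at place 107 in wt 2 and 109 in wt 3 by CPM, and at 257 in CRISPR 3.

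Jon65Aiii (FBgn0035665, 3L 6050757 to 6051690), another Jonah protease, stood at 589 CPM in wt 2, 596 in wt 3 and 345 in CRISPR 3. In the other 5 libraries it ranged from 0 reads in CRISPR 4 to 2.07 CPM in CRISPR 2. The neighbouring protease gene yip7 (FBgn0040060, 3L 6035216 to 6036175) stood at 304, 313 and 213 CPM in the 3 high libraries, with 2.33 CPM in CRISPR 2 as the next value. Per kilobase of exon, Jon65Aiv reached 1469 CPM in the mean of wt 2 and wt 3, Jon65Aiii 677 CPM and yip7 341 CPM. These 3 genes together held 55.3% of the members' summed level in wt 2, 55.7% in wt 3 and 50.8% in CRISPR 3.

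The Jonah genes at the other locus, on 2L, were lower. Jon25Bii (FBgn0031654, 2L 4952243 to 4953136) had 137 CPM in wt 2, 138 in wt 3 and 106 in CRISPR 3, with at most 0.414 CPM elsewhere. Jon25Bi (FBgn0020906, 2L 4954279 to 4955144) had 128 CPM in wt 2, 130 in wt 3 and 119 in CRISPR 3, with at most 0.983 CPM elsewhere. For both genes the highest of the other 5 libraries was CRISPR 2.

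The trypsin genes, whose products cut after basic residues, were lower again. The mean of wt 2 and wt 3 was 24.4 ± 1.89 CPM for deltaTry, 22.7 ± 0.911 CPM for alphaTry and 8.27 ± 0.509 CPM for betaTry (SD, n = 2 libraries), and CRISPR 3 had 13.1, 14.8 and 2.20 CPM. None of the 3 exceeded 0.129 CPM in the other 5 libraries. Phae1 and Phae2, a pair of serine protease genes on 2L, averaged 29.2 ± 1.53 and 6.45 ± 0.187 CPM in wt 2 and wt 3. Genes within the trypsin family, and genes within the Jonah family, are close copies, so the division of reads within each family is uncertain.

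In all, 10 of the 47 members (21.3%) carry a serine protease number (SP or SPH) among their RefSeq synonyms, as do 262 of all gene IDs (1.49%). Some genes not known as proteases, such as dpy, carry such a number too. Of the 58 genes with such a number and a mean of at least 2 CPM in wt 2 and wt 3, the other 48 were not members. Among these was CG8952, just outside the limit of 8 times at 7.06 times, with 4.11 CPM in wt 2, 5.13 in wt 3 and 2.38 in CRISPR 3 against 0.554 CPM in wt 4. CG9672 had 11.6 and 11.8 CPM in the wt pair but 0.668 CPM in CRISPR 3, 5.70% of the wt mean.

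LysS (FBgn0004430, 3L 1227747 to 1228238), a lysozyme gene, was the highest named member outside the proteases. It had 176 CPM in wt 2, 170 in wt 3 and 107 in CRISPR 3, and the next value was 1.16 CPM in CRISPR 2. Of the other 6 lysozyme genes on the lists, LysB differed in pattern. It was highest in CRISPR 3 at 5.12 CPM, with 0.959 and 0.94 CPM in wt 2 and wt 3 and 0.543 CPM in CRISPR 2. The remaining 5 lysozyme genes did not exceed 0.467 CPM in any library.

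Other named members had varied products and low levels. The gene mesh, encoding a protein of the smooth septate junctions that seal gut cells together, had 6.13 CPM in wt 2, 5.34 in wt 3 and 2.52 in CRISPR 3, with at most 0.259 CPM elsewhere. The tetraspanin gene Tsp29Fb averaged 8.92 ± 0.291 CPM in wt 2 and wt 3 and had 3.87 CPM in CRISPR 3. Kaz-m1, which encodes a Kazal-type protease inhibitor, averaged 3.79 ± 0.332 CPM, and the metallothionein gene MtnE, whose product binds metal ions, 2.26 ± 0.044 CPM. The RNA-binding protein gene Rbp6 averaged 2.95 ± 0.0489 CPM. PH4alphaPV, for a prolyl hydroxylase subunit, averaged 2.76 ± 0.139 CPM and had 0 reads in each of the other 5 libraries. Over those libraries 3 reads equal 0.0147 CPM, so PH4alphaPV was at least 188-fold higher in the wt mean and at least 62.1-fold higher in CRISPR 3.

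The remaining 30 members have a CG number in place of a name in the annotation used here, and no role is given to them. They summed to 1231 CPM in wt 2, 1234 in wt 3 and 758 in CRISPR 3. The highest was CG14302 (FBgn0038647, 3R 18732681 to 18733034), with 157 CPM in wt 2, 153 in wt 3 and 77.3 in CRISPR 3. Per kilobase of exon CG14302 reached 551 CPM, behind only Jon65Aiv and Jon65Aiii among the members. Next by CPM were CG31789 with a wt mean of 141 ± 3.34 CPM, CG7953 with 116 ± 1.13 CPM, CG8664 with 113 ± 4.58 CPM and CG17145 with 111 ± 2.65 CPM. CG17570 and CG18745 had 0 reads in all of the other 5 libraries, at least 248-fold and 176-fold below the wt mean.

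The level in CRISPR 3 was not a fixed share of that in wt 2 and wt 3. The median over members was 47.7%, with quartiles of 33.9% and 68.2% and a range from 26.7% (betaTry) to 155% (CG43693). The lower end of that range is set by the rule. The share was 47.7% for Jon65Aiv (95% exact counting interval 47.1 to 48.4%), 58.2% for Jon65Aiii (57.2 to 59.3%) and 69.1% for yip7 (67.6 to 70.8%). The intervals of these neighbours did not overlap. Jon25Bii stood at 77.4% (74.9 to 80.1%) and Jon25Bi at 92.5% (89.6 to 95.6%). Intervals cover counting error only, with every read taken as independent, and CRISPR 3 is a single library. PCR copies of a molecule cannot be told from separate molecules, and where present they make the intervals too narrow.

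For 4 members CRISPR 3 was at or above the wt mean. CG8664 (FBgn0030836, X 17280918 to 17282726, sharing exon sequence with CG5445 and f) had 146 CPM in CRISPR 3 against 109 CPM in wt 2 and 116 CPM in wt 3, a share of 130% (126 to 134%). Its neighbour CG8661 stood at 102% (94.6 to 111%) and CG10910 at 101% (92.7 to 109%), intervals that include equality. CG43693, which overlaps lncRNA:CR45119, had 4.25 CPM in CRISPR 3 and 2.83 and 2.64 CPM in wt 2 and wt 3. At the low end, CG44008 stood at 28.5%, Rbp6 at 29.5%, Kaz-m1 at 30.0% and CG4301 at 31.1%, and 19 members in all were under 40%.

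**Figure D2:**
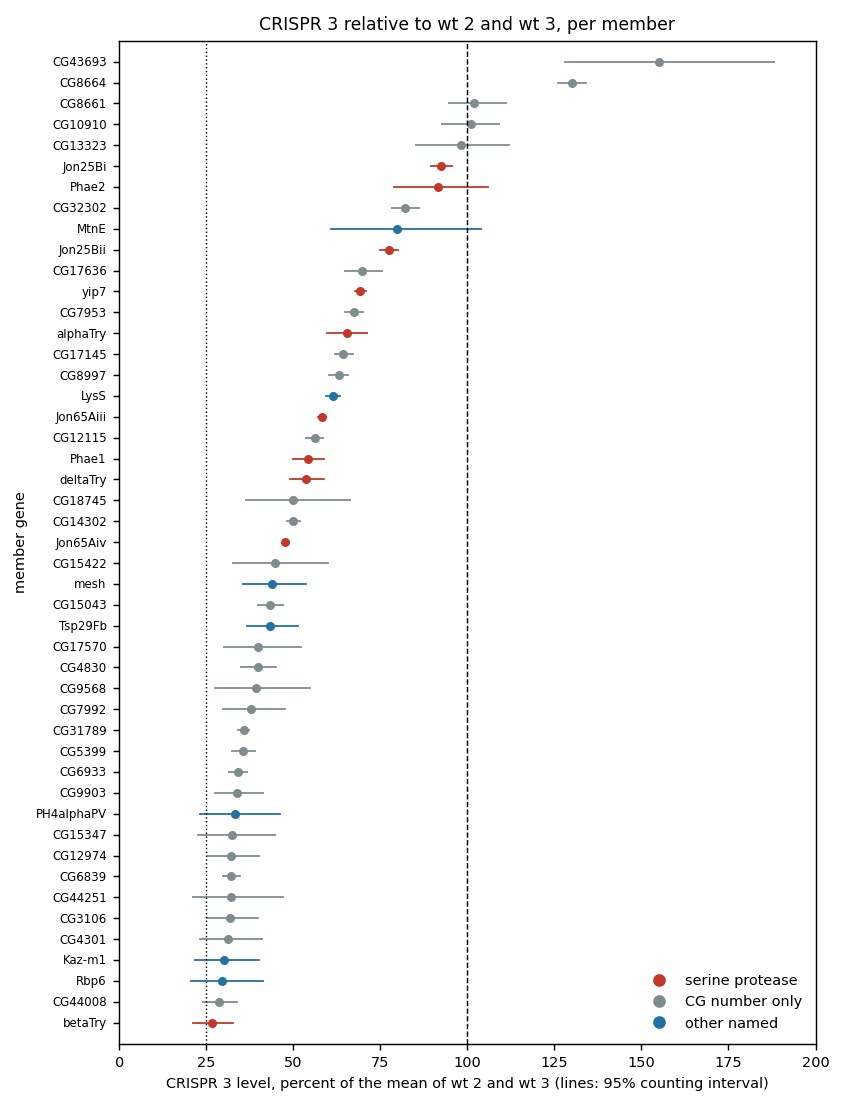
Level of each member in CRISPR 3 as a percent of the mean of wt 2 and wt 3 (x axis), ordered by that percent (y axis, gene names), with lines for the 95% counting interval. Colours mark serine proteases, genes with a CG number only and other named genes, the dotted line the 25% minimum and the dashed line equality. The points run from 26.7% for betaTry to 155% for CG43693, and the interval of Jon65Aiv does not meet that of yip7 or Jon25Bi.

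Grouped by level, the members' median share in CRISPR 3 was higher where the level was higher. The median share was 63.0% for the 12 members with a wt mean of at least 100 CPM, 53.8% for the 14 between 10 and 100 CPM and 37.9% for the 21 below 10 CPM. For the 10 serine proteases it was 61.8%, and for the 30 CG genes 41.6%. These values describe 1 CRISPR library and were not tested.

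By contrast, wt 2 and wt 3 had nearly the same level of each member. The median log2 ratio of wt 2 to wt 3 was -0.021, and it ranged from -0.17 for CG9903 to 0.56 for CG18745, a gene with 3.08 and 2.09 CPM. Over the 35 members with at least 400 reads in the pair, the robust SD of the log2 ratio was 0.0688, close to the 0.0523 that counting alone gives. Among 6687 other genes in the same range of reads it was 0.0591. The log2 ratio of CRISPR 3 to the wt mean had a robust SD of 0.762 over the 35 members and 0.184 over the other genes. The rule chose the members by this ratio and by differences between libraries, so these spreads are a description and their difference was not tested. The chi-square per gene between wt 2 and wt 3 was 2.39 for these members and 3.83 for the other genes, above the value near 1 of sampling noise. The pair was therefore not treated as copies of 1 library. This excess cannot tell separate discs from separate preparations of the same RNA, and neither was tested. Over genes, the deviations of wt 2 and wt 3 from the wt mean correlated alike with those of CRISPR 1 (-0.185 and -0.18) and CRISPR 3 (0.438 and 0.436). The same held for CRISPR 2 (0.162 and 0.176) and CRISPR 4 (-0.349 and -0.365). An SD over this pair may thus reflect technical spread only.

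**Figure D3:**
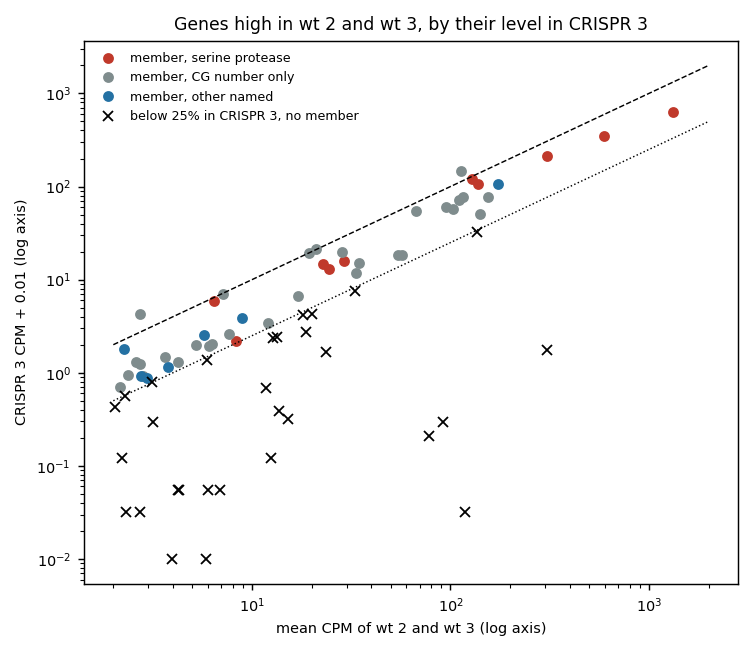
Mean CPM of wt 2 and wt 3 (x axis, log scale) against CPM + 0.01 in CRISPR 3 (y axis, log scale) for the 47 members (circles, coloured by kind) and the 30 genes that pass the first limits but fall under 25% in CRISPR 3 (crosses). The dashed line is equality and the dotted line 25%. The crosses spread down to 0 reads, with Obp56d at 305 CPM on the x axis and 1.76 CPM on the y axis.

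The limit on CRISPR 3 separated the members from 30 genes that were as high in wt 2 and wt 3 relative to the other 5 libraries. Their median share in CRISPR 3 was 3.90%, and 15 of them were under 5%. Obp56d, an odorant-binding protein gene, had a wt mean of 305 CPM and 1.76 CPM in CRISPR 3, and CG7465 had 118 CPM and 0.0223 CPM. Just under the limit of 25% were Cyp9b2 at 24.96%, the mucin gene Mur29B at 24.43% and Pebp1 at 24.08%, while betaTry at 26.65%, CG44008 at 28.48% and Rbp6 at 29.47% were just inside. Next to the limit of 8 times were CG4301 (8.64 times), CG43693 (9.13) and CG12974 (9.23) inside, and CG8952 (7.06), CG10650 (6.89) and Tsp42Ed (5.90) outside. Of the genes left out by name, Fbp1 alone met all of the limits, at 25.2% in CRISPR 3.

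The residual levels in the other 5 libraries were also unequal. The 10 serine proteases summed to 11.0 CPM in CRISPR 2 (425 reads) and 2.42 CPM in CRISPR 1 (85 reads), against 0.785 CPM in wt 4, 0.448 in wt 1 and 0.400 in CRISPR 4 (17 reads). Relative to the mean of wt 2 and wt 3 these were 0.425%, 0.0937%, 0.0304%, 0.0173% and 0.0155%. CRISPR 2 was the highest of the 5 for 26 of 47 members, among them Jon65Aiv, Jon65Aiii, yip7, LysS, Jon25Bi and all 3 trypsin genes. The same share over all genes was not computed, so nothing is read from this count. Some ranks rest on few reads. In CRISPR 2, 19 members had at most 3 reads, and alphaTry had 2 reads in each of CRISPR 2, wt 4 and CRISPR 4. Members with another library highest included CG5399, with 1.98 CPM in CRISPR 4, 1.59 in wt 4 and at most 0.491 in the other 3, and CG15043, with 1.13 CPM in CRISPR 4 and 0.785 in wt 4.

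The members were looked up in marker lists of larval tissues. Of 19 lists, 16 held no member, including those for enteroendocrine cells, foregut and hindgut, Malpighian tubule, fat body, salivary gland, neurons, glia, hemocytes, trachea, ring gland, gonad, cuticle and sarcomere. The 10 members on the lists were all among the 89 entries of the 4 midgut lists, of which the carbohydrase list held none. Over all gene IDs, 0.268% are members. The rule bears on the lists without members. It left out 6 fat body genes by name, of which Fbp1 met all of the limits. All matched genes for trachea, wing disc epithelium and adult muscle precursors had at least 1 CPM in all 5 low libraries. No Malpighian tubule gene reached a wt mean of 2 CPM. These absences therefore do not show that the members are particular to the midgut. The midgut serine protease list held 8 of them out of 31 genes, and LysS and mesh were the others. The protease list summed to 2531 CPM in wt 2, 2576 in wt 3 and 1450 in CRISPR 3, and to between 0.894 CPM (CRISPR 4) and 13.2 CPM (CRISPR 2) elsewhere. Its 8 members supplied most of the sum in the high libraries, so the rule fixed this difference.

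Some listed midgut genes that are not members also had their 3 highest levels in these libraries. Of 12 genes on the enterocyte and midgut identity list with a wt mean of at least 0.5 CPM, 9 had wt 2, wt 3 and CRISPR 3 all above the other 5 libraries, and 8 of these were not members. Over all 8871 genes at that level the share was 8.6%. Of the other midgut lists, the carbohydrases had 1 of 5 such genes and the lysozymes, lipases and lumen proteins 3 of 4. Lists of other tissues held such genes too, with 4 of 14 for neurons, 3 of 9 for fat body and 3 of 9 for adult muscle precursors. The enterocyte gene mex1 had 2.33 CPM in wt 2, 2.66 in wt 3 and 1.67 in CRISPR 3, and at most 0.400 CPM elsewhere. Both partners of mesh in the smooth septate junction showed it, with Tsp2A at 2.19, 2.38 and 1.18 CPM in the 3 libraries and at most 0.777 CPM elsewhere, and Ssk at 1.44, 1.17 and 0.490 CPM and at most 0.259 CPM elsewhere. The metallothionein gene MtnD had 1.31 CPM in both wt libraries and 0.935 CPM in CRISPR 3, against at most 0.0706 CPM. For GATAe, the midgut GATA factor, the gap was small, with 0.729, 0.871 and 0.979 CPM against up to 0.659 CPM in CRISPR 4. In all 5 low libraries, 5 of the 18 genes of the list stood at 1 CPM or more, dve among them, and the list's sum had wt 3 highest at 697 CPM and CRISPR 4 lowest at 554 CPM, with CRISPR 2 at 687 CPM above CRISPR 3 at 670 CPM.

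Many midgut genes were at or near 0 everywhere. Of the 31 listed midgut proteases, 16 stayed under 0.1 CPM in all 8 libraries, including Jon44E, Jon99Fi, Jon99Fii, zetaTry and kappaTry with 0 reads in each. No carbohydrase gene was a member. The amylase genes Amy-p and Amy-d did not exceed 0.275 CPM, and the maltase gene Mal-A3 had 0.417 CPM in wt 2, 0.367 in wt 3 and 0.223 in CRISPR 3. The carbohydrase list summed to 44.1 CPM in wt 2 and 93.1 CPM in CRISPR 3, mostly through LManII, a mannosidase gene present in all libraries. Vha100-4, a proton pump subunit gene of acid-secreting midgut cells, did not exceed 0.0672 CPM, and the amidase genes PGRP-SC1a and PGRP-SC1b had 0 reads in all libraries.

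Some markers of other tissues were also higher in wt 2 and wt 3, and lay lower in CRISPR 3. The fat body list summed to 590 CPM in wt 2, 605 in wt 3 and 130 in CRISPR 3, against 64.7 to 110 CPM in the other 5 libraries. The enteroendocrine list summed to 21.1, 23.8 and 3.76 CPM against 1.15 to 2.59 CPM, mostly through pros, a transcription factor gene also used in the nervous system. Among its peptide genes, NPF, Tk, Dh31, Mip and CCHa1 had 0 reads in CRISPR 3 and at most 0.438 CPM in the wt libraries. The others, AstA, AstC, CCHa2 and Orcokinin, had reads in CRISPR 3. AstA had 0.668 CPM there, 0.646 in wt 2 and 0.986 in wt 3, and was highest in CRISPR 1 at 1.08 CPM. The active zone gene brp had 2.08 CPM in wt 2, 2.36 in wt 3 and 0.356 in CRISPR 3. The sum of the neuron list did not follow brp, and unc-13, at 301 CPM in wt 2, supplied most of it. That sum was 417 CPM in wt 2, 403 in wt 3 and 353 in CRISPR 3, against 289 to 422 CPM elsewhere. The listed gene elav ranged only from 53.1 CPM (CRISPR 1) to 78.8 CPM (wt 4). Over the 14 neuron genes with a wt mean of at least 0.5 CPM, the median share in CRISPR 3 was 16.9%. The shares ran from 6.19% for Rdl to 91.7% for unc-13. Malpighian tubule markers were low throughout, at 1.84 to 3.19 CPM over 10 genes. The part of these tissues in the levels of the members was not tested.

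**Figure D4:**
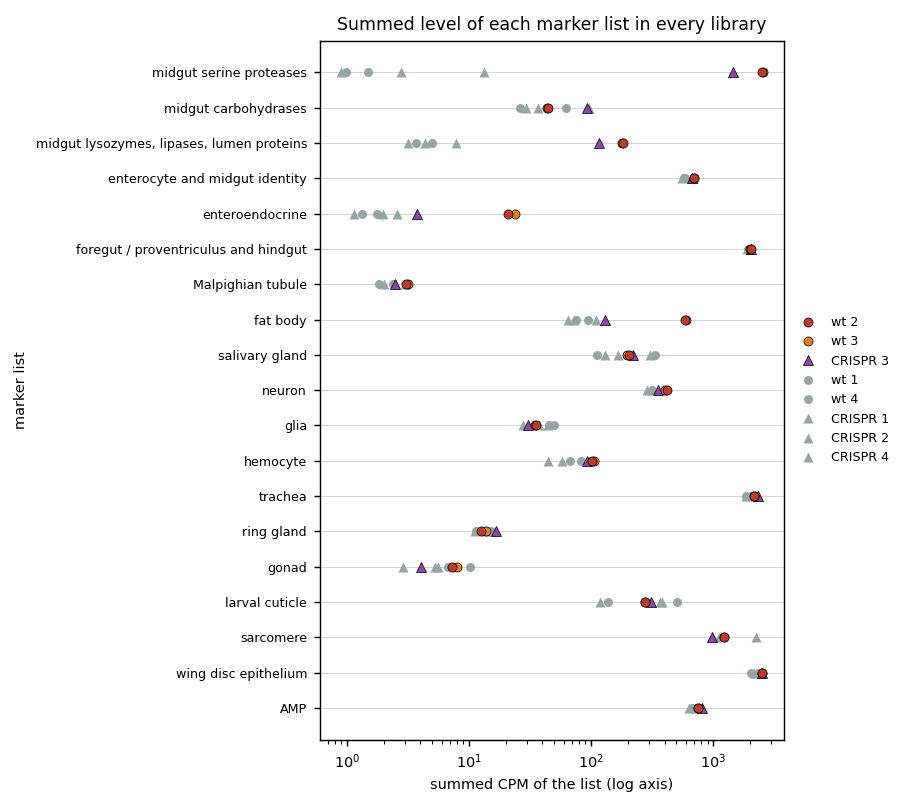
Summed CPM of each of 19 marker lists (rows) in each library (x axis, log scale), with circles for wt and triangles for CRISPR. Red and orange circles are wt 2 and wt 3, purple triangles CRISPR 3, and grey symbols the other 5 libraries. The midgut serine protease list is split widest, with the coloured symbols at 1450 CPM or above and the grey ones at 13.2 CPM or below. The rule for members fixed this split through the 8 members on the list.

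Some members were neighbours in the genome. Of 47 members, 15 (31.9%) were within 10 kb of another member, in 7 groups, whereas 83 of 7293 other genes with a wt mean of at least 2 CPM (1.14%) were within 10 kb of a member. The groups were Jon25Bii with Jon25Bi, Phae1 with Phae2, CG8997 with CG7953, CG6933 with CG17145, CG8664 with CG8661, yip7 with Jon65Aiv, and alphaTry with betaTry and deltaTry. Neighbours did not always have the same share in CRISPR 3. CG8997 and CG7953 stood at 63.0% and 67.3%, but CG6933 and CG17145 at 34.1% (31.6 to 36.7%) and 64.4% (62.0 to 67.1%).

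Within the arrays, members lay beside genes that were hardly detected or under the 2 CPM minimum. On 3L, Jon65Aii and Jon65Ai lie next to Jon65Aiii, yet they did not exceed 0.0917 and 0.0417 CPM in any library. Among the trypsin genes on 2R, epsilonTry lies between alphaTry and betaTry and had 1.81 CPM in wt 2, 1.90 in wt 3 and 1.20 in CRISPR 3, against 0.750 CPM in CRISPR 2. The gene gammaTry, between betaTry and deltaTry, had at most 0.0208 CPM. The tables list reads without a unique place in a row of their own, so a near-identical copy could be undercounted.

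**Figure D5:**
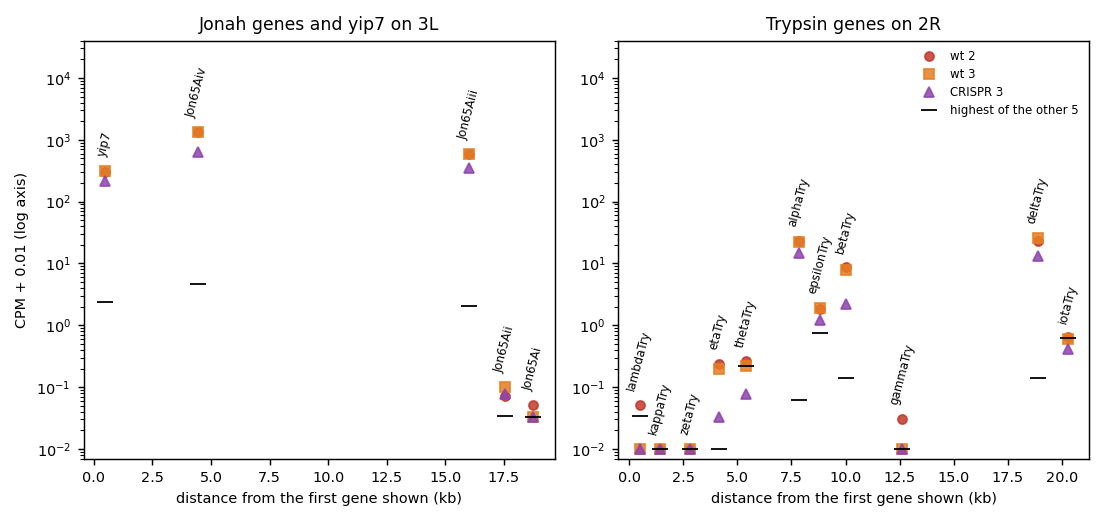
CPM + 0.01 (y axis, log scale) of neighbouring protease genes against distance in kb from the first gene shown (x axis), for the Jonah genes and yip7 on 3L (left) and the trypsin genes on 2R (right). Circles are wt 2, squares wt 3, triangles CRISPR 3, and dashes the highest of the other 5 libraries. Jon65Aiv at 1341 CPM in wt 3 stands in the same array as Jon65Ai at 0.0229 CPM.

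The members were compact genes. Their median exon length was 1230 bases and their median exon number 2, against 2227 bases and 4 exons for the 7293 other genes. A single exon made up 27.7% of the members, LysS, both Jon25B genes, both Phae genes and the 3 trypsins among them, and 9.57% of the other genes. The longest members were Rbp6, with 15616 exonic bases, CG4301 with 6107 and mesh with 5175. Exons of 11 members overlap another gene, and because the strand setting is unknown, reads there cannot be told apart. The members were spread over X (10), 2L (12), 2R (6), 3L (11) and 3R (8).

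Between genotypes, what the members showed depended on which libraries were compared. Among the 4 used libraries, edgeR called 46 of 47 members lower in CRISPR 1 and CRISPR 2 than in wt 2 and wt 3, with a median log2 change of -7.84 against 0.00 over all genes. The background was 2.72% called in either direction and 2.34% called lower, of 9711 genes. The rule used this contrast, so nothing is read from the count, and the members made up 17.4% of the 264 calls. Without wt 2, or without wt 3, 27 members were called. The member not called was CG43693.

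Over all 8 libraries, 16 members passed the filter on low counts and 31 did not. Those that passed, Jon65Aiv, Jon65Aiii, yip7 and LysS among them, had about 10 reads or more in a library outside the high 3. Most that did not pass had reads there too, but fewer. The count and median of those that passed therefore support nothing about the members as a whole. Of the 16, edgeR called 0, with 0 at an unadjusted p under 0.05, and DESeq2 also called 0. The background was 0.184% of 9255 genes. Their median log2 change was -1.99, with all 16 negative, and 2 wt libraries but 1 CRISPR library were high. With the replicate number as a block, edgeR also called 0 of them.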

How the data were processed

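RNA-seq was made from 8 libraries, 4 of each genotype, grouped by their titles. Each deposited table holds the raw read counts of 1 library. The submitters' processing notes name FastQC, Trimmomatic 0.36, STAR, DESeq2 and dm6. Not given in the sources used here are the program that counted reads, its strand setting and its annotation. The 5 special rows that name no gene were left out. They held 0.955% to 1.91% (no feature), 3.07% to 3.44% (ambiguous) and 2.22% to 4.40% (not unique) of all reads, and the other rows were NA or 0.

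CPM is the count over the sum of gene rows, scaled to 1000000. Symbols and positions, from Ensembl's annotation of the same assembly, were matched for 17253 of 17559 IDs, and 250 of 272 marker list entries matched an ID. Genotypes were compared by edgeR 4.0.16 (R 4.3.3) on TMM-scaled counts, keeping genes by filterByExpr (minimum count 10, minimum total 15). Its two-sided quasi-likelihood test called a gene when its p, adjusted by Benjamini-Hochberg, was under 0.05, and the code was tested on simulated data. DESeq2 1.42.0 was an alternative. As the labels name no separate animals or pools, a p-value here reflects only the spread among libraries, which may be technical.

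The members, lists and named genes were chosen with earlier results of these data known. Named genes are the 15 members highest in wt 2 and wt 3, the 5 highest and 5 lowest in CRISPR 3 share, those nearest the limits, listed markers and Antp, and the text gives a selection. Others, such as Tsp29Fb, PH4alphaPV, CG18745, CG9672 and Obp56d, were chosen after their values were seen. Deviations of same-numbered wt and CRISPR libraries had positive correlations over genes (0.446, 0.162, 0.436 and 0.731 for numbers 1 to 4). The number was therefore used as a block in an alternative fit. These correlations do not establish a pairing, as wt 2 correlated more with CRISPR 3 (0.438) and CRISPR 2 more with wt 1 (0.277) and wt 3 (0.176). Exact binomial (Clopper-Pearson) intervals cover CRISPR 3 reads against wt 2 plus wt 3 reads. Protein and promoter features planned for this work were not analysed here.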

Additional observations from a re-analysis of the deposited data

Results flagged for a closer look

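For sums of members and of marker lists, and for Antp, each genotype's 4 libraries were searched for a library far from the other 3. Chance flags about 1 in 20 groups, and 8 of 48 were flagged. In the CRISPR group CRISPR 3 stood apart for the sum of all members (2345 CPM, against 5.39 to 18.0 CPM), which the rule for members fixed, as it did for the serine proteases (1469 CPM), the CG genes (758 CPM) and the other named members (118 CPM). It also stood apart for 2 marker lists that hold members, the midgut serine proteases (1450 CPM, against 0.894 to 13.2 CPM) and the midgut lysozymes, lipases and lumen proteins (116 CPM, against 3.15 to 7.91 CPM). Taken singly, 45 of 47 members had CRISPR 3 far from the other CRISPR libraries, and 0 had such a library in the wt group. The rule, with 1 CRISPR and 2 wt libraries high, fixed these counts and bears on both lists through their members.

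Outside the members, CRISPR 2 stood apart for the sarcomere list (2262 CPM, against 976 to 1128 CPM). In the wt group, wt 1 stood apart for the adult muscle precursor list (669 CPM, against 748 to 755 CPM). These sums are CPM without TMM scaling. The TMM factor was 0.911 for wt 1 and 1.03 to 1.04 for the other wt libraries, so scaling would raise wt 1 relative to them. Whether the wt 1 flag holds on TMM-scaled CPM was not tested, and nothing is read from it.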

How the results depend on the processing

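The number of members was 53 at 4 times and 39 at 16 times the other libraries, 57 and 35 with a minimum of 1 and 5 CPM, 58 and 21 with a CRISPR 3 minimum of 10% and 50%, 26 with 1 CPM in place of 0.1 CPM added, and 48 on TMM-scaled CPM. Leaving out 1 of the other 5 libraries, or wt 2 or wt 3, gave 47 to 49, with all 47 kept each time. The median CRISPR 3 share was 59.8% for members of at least 10 CPM, 48.2% on TMM-scaled CPM, and 45.5% to 47.3% with 1 wt library left out. The median log2 ratio of wt 2 to wt 3 became -0.017 on TMM-scaled CPM, an alternative chosen after seeing the data.

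Among the 4 used libraries the 264 calls became 781 in DESeq2 and 400 without the filter on low counts, and 39 without wt 2, 42 without wt 3, 5056 without CRISPR 1 and 5759 without CRISPR 2, where a lone library is assumed to vary like the others. The members called then numbered 27 to 47. Over 8 libraries the 17 calls became 78 in DESeq2 and 1 to 26 with 1 library left out, and 14 with the replicate block, which changed no call of a member. RLE factors gave 263 and 18 calls. No paired analysis was possible among the used libraries because they share only number 2. In the 5 low libraries a count of 0 allows 0.0672 CPM (wt 1) to 0.0855 CPM (CRISPR 1), so most levels there lie near that limit.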
